A study of Mus musculus with 3 samples.

Results

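The genes described here encode voltage-gated sodium channels, voltage-gated calcium channels and transient receptor potential (TRP) channels of the mouse, together with their auxiliary subunits. They were taken by symbol: every gene probe of the arrays was kept whose gene name begins with Scn, a number and a or b, with Cacna, Cacnb or Cacng, or with Trpc, Trpm or Trpv and a number. That rule gave 59 of the 27666 gene names on the arrays, with 112 probes of 60 bases. Of these, 38 encode sodium or calcium channel subunits and 20 encode TRP channels, most of which are not opened by voltage alone. The remaining gene, Trpc4ap, encodes a protein associated with TRPC4 and is no channel, although its symbol fits the rule. Counts and shares of channel genes given below include it. Cacna2d4, Scn4b and Trpv1 have the same kind of symbol and were not analysed here.

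RNA of untreated mouse embryonic stem (ES) cells, grown in Knockout DMEM with defined serum and leukemia inhibitory factor, was set against RNA of MEF (the usual short form of mouse embryonic fibroblasts) grown in DMEM with fetal bovine serum. Each of 3 two-colour Agilent whole-genome arrays carried RNA of 1 ES cell sample in Cy3 and MEF RNA in Cy5, and the dyes were not swapped. The labels name no strain, genotype or passage for either culture, and the series' design text calls the Cy5 sample both MEF and a mix. Whether the 3 ES cell samples came from separate cultures is not stated, and MEF counts as 1 control sample. The p-values therefore measure array-to-array spread that may be only technical, and they leave out the spread between MEF cultures. The number of arrays limits the precision.

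Voltage-gated sodium channels carry the fast inward current of action potentials in nerve and muscle, through an alpha subunit that forms the pore and beta subunits that tune its gating and placement. Calcium channels of the L, P/Q, N and R types join a pore-forming alpha1 subunit with a beta and an alpha2delta subunit, both of which help to bring the pore to the cell surface, whereas T-type channels work near the resting potential and can form without them. TRP channels pass calcium or other cations in response to lipids, heat, stretch, osmotic change or receptor signals. ES cells and fibroblasts are not excitable cells in the way that neurons or muscle are.

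Of the 59 genes, 40 were tested, having a probe that stood well above background on all 3 arrays in at least 1 of the cell types. At a Benjamini-Hochberg adjusted p under 0.05 (limma, adjusted over all 19493 genes tested) and a difference of at least 2-fold, 13 were lower in ES cells and 4 were higher, while 23 were not called. Over all genes tested, 22.4% were called lower, 20.4% higher and 42.8% either way. The shares among the tested channel genes were 32.5% lower, 10.0% higher and 42.5% either way, so that the total was near the background, with more of the calls on the lower side. The median log2 ratio of ES cells over MEF was -0.35 for the 40 genes, against -0.05 for all genes tested. In bulk RNA, fewer cells of a type and less RNA per cell cannot be told apart.

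The genes called lower in ES cells included the pore-forming subunits Cacna1g, Cacna1c and Scn2a, the auxiliary subunits Cacna2d1, Cacna2d3, Cacnb2, Cacnb3 and Cacnb4, the TRP channels Trpv2, Trpv4 and Trpc6, and Trpc4ap. Those called higher were Scn8a, Cacna1s, Trpc2 and Trpm1. For all 17, the ES cell signals and the MEF signals of the 3 arrays did not overlap, which was also so for 19 of the 23 tested genes not called, for 91.9% of all genes tested and for 99.9% of all called genes. An absence of overlap therefore sets no channel gene apart on these arrays. Ratios repeated closely between arrays, with a median SD of the log2 ratio of 0.046 for the tested channel genes and 0.028 for all genes tested. Among the 23 genes not called, 21 had an adjusted p under 0.05 (limma) but changed by less than 2-fold, and 13 of the 23 had a log2 ratio under 0.5 in size. With the scanner software's processed signals in place of the normalization used here, 3 of the 23 were called higher (Scn3b, Cacng5 and Cacng6) and 3 lower (Cacna1d and Trpm3 among them). Those signals also widened the fold difference, on the unlogged scale, of called genes with a dim cell type by over 1.5 times. Their log2 ratios became 3.69 for Scn8a, 3.09 for Trpm1, -3.61 for Scn2a, -2.87 for Cacna1c, -2.78 for Trpc6, -2.67 for Cacnb4 and -2.42 for Cacnb2.

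**Figure D1:**
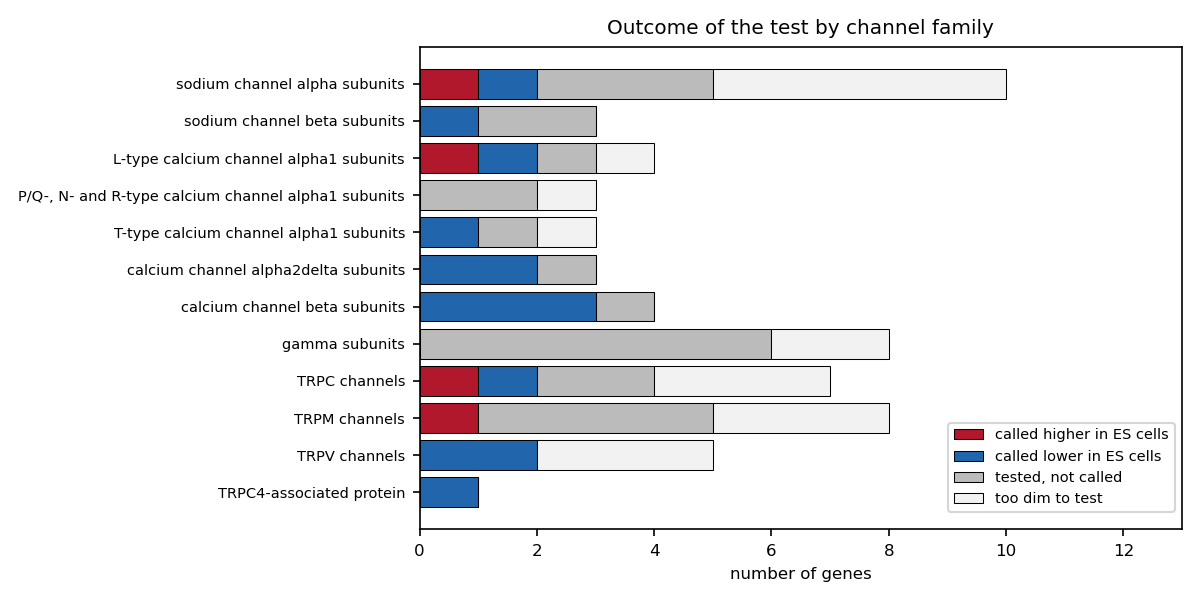
Number of channel genes per family (horizontal axis) that were called higher in ES cells than in MEF, called lower, tested without a call, or too dim to test. The alpha2delta and beta subunits of calcium channels hold 5 of the 13 lower calls among their 7 genes, while no gamma subunit was called. Over all genes tested, 22.4% were called lower and 20.4% higher.

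Detection was read apart from the ratios. On these arrays 29 of the 59 genes were above background in both cell types, 3 in ES cells alone, 8 in MEF alone and 19 in neither, each judged on all 3 arrays. Over all genes, the shares were 61.5% in both, 4.54% in ES cells alone, 4.45% in MEF alone and 29.5% in neither. Among the channel genes, 49.2% were above background in both, 5.08% in ES cells alone, 13.6% in MEF alone and 32.2% in neither. Passing through 1 cell type alone favours a difference without requiring one, which touches Trpm1, Cacng4 and Cacng6 on the ES cell side. On the MEF side it touches Scn2a, Scn1a, Cacnb2, Cacna1d, Trpc6 and Trpm3, among others. Scn1a, for one, was also above background on 2 of 3 arrays in ES cells, and its signals overlapped between the cell types.

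Promoter windows of 300 bases around an annotated start were available for 48 of the 59 genes (63 windows, RefSeq, GRCm38.p6). The 5 windows below each belong to a called gene with a single annotated start, 3 of them lower and 2 higher in ES cells. They were picked by hand among such genes because they differ in base composition. Capitals mark the GC box, GGGCGG or its reverse complement CCGCCC, a motif bound by Sp-family factors; overlapping matches were each counted.
Cacna2d1 promoter, called lower, chr5:15934441-15934740, plus strand: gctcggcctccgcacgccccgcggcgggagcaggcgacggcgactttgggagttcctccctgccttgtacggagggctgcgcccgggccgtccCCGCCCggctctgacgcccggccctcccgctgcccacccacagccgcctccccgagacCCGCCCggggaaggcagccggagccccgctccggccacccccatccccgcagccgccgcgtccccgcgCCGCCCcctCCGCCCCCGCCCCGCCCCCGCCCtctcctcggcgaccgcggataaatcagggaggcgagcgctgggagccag
Cacna2d3 promoter, called lower, chr14:29721815-29722114, minus strand: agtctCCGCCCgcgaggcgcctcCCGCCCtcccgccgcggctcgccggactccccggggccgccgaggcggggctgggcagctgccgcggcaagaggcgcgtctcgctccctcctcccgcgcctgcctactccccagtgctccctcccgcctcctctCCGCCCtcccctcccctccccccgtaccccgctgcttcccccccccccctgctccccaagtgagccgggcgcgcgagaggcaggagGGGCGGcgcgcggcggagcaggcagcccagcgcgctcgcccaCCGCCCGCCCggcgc
Trpv4 promoter, called lower, chr5:114658372-114658671, minus strand: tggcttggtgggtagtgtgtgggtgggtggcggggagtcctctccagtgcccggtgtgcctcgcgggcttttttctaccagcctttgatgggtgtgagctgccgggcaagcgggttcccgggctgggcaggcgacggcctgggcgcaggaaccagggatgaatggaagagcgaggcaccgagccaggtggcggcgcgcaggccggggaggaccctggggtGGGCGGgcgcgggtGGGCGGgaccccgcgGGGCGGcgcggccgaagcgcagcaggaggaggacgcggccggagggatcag
Cacna1s promoter, called higher, chr1:136052561-136052860, plus strand: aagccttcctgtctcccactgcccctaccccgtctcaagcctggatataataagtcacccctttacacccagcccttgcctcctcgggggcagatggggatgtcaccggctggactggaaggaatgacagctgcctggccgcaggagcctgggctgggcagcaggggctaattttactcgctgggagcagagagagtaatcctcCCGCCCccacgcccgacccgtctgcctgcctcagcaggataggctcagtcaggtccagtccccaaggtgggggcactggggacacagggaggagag
Trpc2 promoter, called higher, chr7:102082866-102083165, plus strand: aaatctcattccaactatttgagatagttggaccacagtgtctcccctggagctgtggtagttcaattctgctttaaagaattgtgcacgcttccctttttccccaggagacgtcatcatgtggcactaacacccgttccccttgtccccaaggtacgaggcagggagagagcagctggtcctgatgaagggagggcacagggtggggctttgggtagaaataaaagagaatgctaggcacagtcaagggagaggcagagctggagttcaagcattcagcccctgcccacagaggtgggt
In these windows Cacna2d1 has 42 CpG dinucleotides and 7 GC boxes, Cacna2d3 41 and 6, and Trpv4 30 and 3, against 9 and 1 for Cacna1s and 4 and 0 for Trpc2. The 5 do not stand for their groups, since the choice itself made this contrast. Trpc6 and Trpc4ap, also called lower with 1 window each, were not printed. Trpc6 has 17 CpG and 0 GC boxes, and Trpc4ap has 18 and 1. Over all called genes with a window, the median was 13 CpG per window for the 11 lower genes (20 windows) and 7.5 for the 4 higher genes (6 windows), and Scn8a, called higher, has a window with 38. The GC box on either strand was found in 45.0% of the windows of lower genes and in 16.7% of those of higher genes (1 window), against 35.7% of all 32851 mouse windows. Tested genes without a call (16 genes, 20 windows) had a median of 15 CpG and the GC box in 40.0% of windows. Lower genes were thus close to uncalled ones in both measures. These are descriptions of sequence, and a match is not a shown binding site.

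By family, the median window had 15.0 CpG for calcium channel subunits, 5.0 for sodium channel subunits and 7.0 for TRP genes, beside 7.0 for all windows. Genes that were tested had a median of 11.0 and genes too dim to test 5.0. Among the other motifs searched on both strands, CCAAT was in 20.6% of the windows of channel genes against 37.4% of all windows, TATAAA in 11.1% against 13.6%, CACGTG in 4.76% against 7.15% and GGACAG in 19.0% against 22.2%. CAGCACC was in 0 of the 63 windows and in 7.14% of all windows. CAGCACC and GGACAG are the ends of the site of the neuronal repressor REST. Windows of 1 gene are not independent, and overlaps between motifs were not removed.

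Sodium channel alpha subunits form the pore of the sodium channel. Of 10 genes, 5 were bright enough to test, and 1 was called higher and 1 lower in ES cells. Scn8a, which encodes the alpha subunit of mature axon initial segments and nodes, had normalized signals of 1158, 1128 and 1139 in ES cells and 174, 176 and 177 in MEF (arbitrary units, arrays 1 to 3). Every ES cell value lay far above every MEF value, at a log2 ratio of 2.70 ± 0.031 (SD, n = 3 arrays), or 6.5-fold, with an adjusted p of 2.16e-07 (limma). The call rests on 1 probe, assigned to a cDNA clone at chr15:101026891-101026950 (mm7, the build of the files' probe coordinates). The other Scn8a probe, assigned to the RefSeq transcript, was not well above background on any array in either cell type, with mean signals of 89.7 in ES cells and 72.7 in MEF. The first 30 of the 60 bases of the clone's probe are shown because it alone carries the call.
Scn8a probe, first 30 bases: catgtttgacagacatctctgacatacagc

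Scn2a, a main alpha subunit of central axons that the files list as Scn2a1, went the other way. Its brightest probe read 123, 120 and 155 in ES cells and 692, 747 and 705 in MEF, so the cell types did not overlap. The log2 ratio was -2.44 ± 0.228 (SD, n = 3), with an adjusted p of 2.88e-05 (limma), and the ES cell signal was well above background on 1 of 3 arrays. Another probe gave -2.52, and the probe placed upstream of both gave -0.97 and missed the 2-fold minimum. Scn2a lies in a cluster of 5 alpha subunit genes on chromosome 2, with Scn3a, Scn1a, Scn9a and Scn7a, whose brightest probes span 65392004 to 66606664 (mm7). Of these 5, Scn2a was the only one called, Scn1a was tested without a call, and the other 3 were too dim to test.

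Scn1a was the least repeatable of the tested channel genes. Its signals were 122, 437 and 158 in ES cells and 189, 440 and 206 in MEF, and array 2 stood apart in both channels. The log2 ratio was -0.34 ± 0.313 (SD, n = 3) with an adjusted p of 0.0636 (limma). Scn4a, the skeletal muscle subunit, had a log2 ratio of -0.35 and did not reach 2-fold.

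Sodium channel beta subunits are single-pass proteins that modulate the pore and also act in cell adhesion. Values are given here for 2 of the 3 genes on the arrays, and they do not stand for the family. Scn3b read 2400, 2401 and 2363 in ES cells and 1230, 1190 and 1188 in MEF, which is a log2 ratio of 0.99 ± 0.024, just short of the 2-fold minimum and therefore not called. Scn3b was called higher under 5 of the alternative settings, at up to 1.23. The cell types did not overlap for Scn3b. Scn2b, another beta subunit, had a log2 ratio of 0.25.

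**Figure D2:**
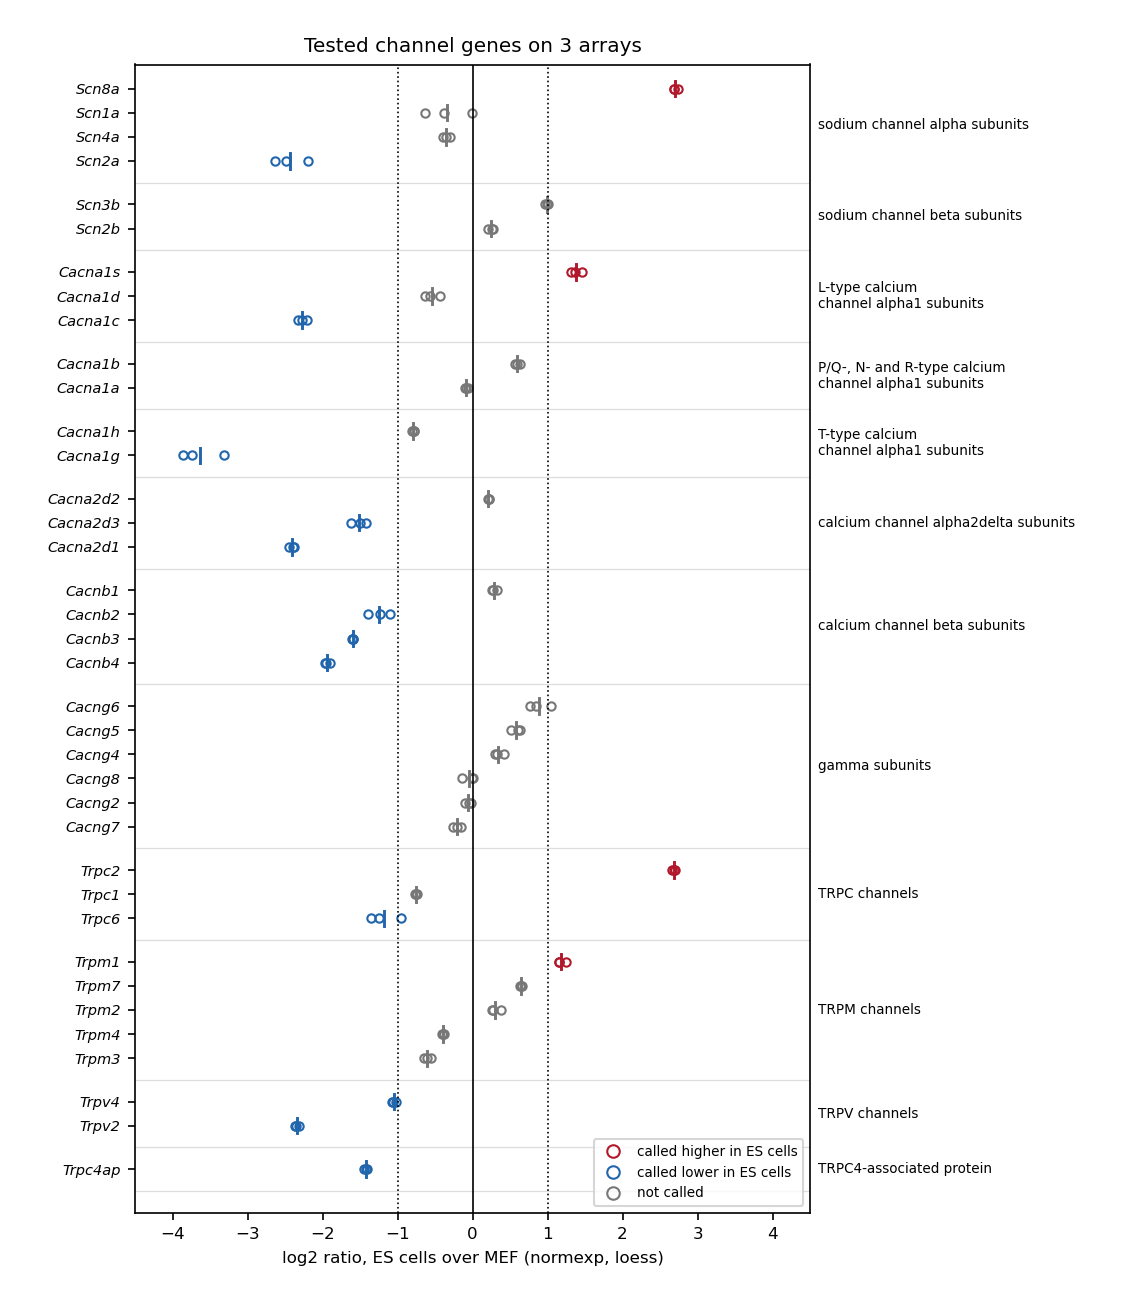
Log2 ratio of ES cells over MEF (horizontal axis) for 37 of the 40 tested channel genes, with each circle 1 array and each vertical tick the mean of 3. Dotted lines mark the 2-fold minimum, and the spread between arrays is small beside the distance of most called genes from 0, Trpv4 at -1.05 being the called gene closest to a line.

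Calcium channel alpha1 subunits form the calcium pore and set the channel type. In the L-type group, 3 of 4 genes were tested. Cacna1c, the main L-type pore of heart, smooth muscle and brain, read 187, 186 and 199 in ES cells and 905, 937 and 917 in MEF. It was called lower, with a log2 ratio of -2.27 ± 0.062 (SD, n = 3) and an adjusted p of 8.09e-07 (limma), and its second probe gave -1.87. Cacna1s, the L-type pore of skeletal muscle, had signals of 689, 674 and 694 in ES cells and 278, 260 and 252 in MEF. It was called higher at 1.38 ± 0.077 (SD, n = 3; adjusted p 6.08e-06, limma). The second Cacna1s probe was dim in both cell types and was not tested.

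Cacna1d, another L-type pore of neurons and endocrine cells, was above background in MEF alone. Its ES cell signals of 104, 98.9 and 126 were not well above background and stood beside MEF signals of 153, 154 and 170, so the difference is given as at least 1.35-fold lower in ES cells. Such bounds divide the mean of the bright cell type by a ceiling for the dim one, namely the dim reading itself or, where larger, the faintest reading that still counted as well above background on that array. The fitted log2 ratio was -0.54, and Cacna1d was not called. Cacna1f, known from the retina, was too dim to test.

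In the P/Q-, N- and R-type group, which serves transmitter release at synapses, 2 of 3 genes were tested and none was called. Cacna1b, the N-type pore, read 368, 385 and 391 in ES cells and 248, 248 and 260 in MEF, with no overlap. Its log2 ratio of 0.60 ± 0.031 (SD, n = 3; adjusted p 1.03e-05, limma) was below the 2-fold minimum. The ratio for Cacna1a, the P/Q-type pore, was -0.09, and its second probe gave 0.31. Its sign also turned under median centring and under the mean of its probes. Cacna1e, the R-type pore, was too dim to test.

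The T-type group held the lowest ratio of all the channel genes. Cacna1g, a low-voltage pore known from thalamic and pacemaker cells, read 370, 333 and 530 in ES cells and 4953, 4826 and 5270 in MEF. All ES cell values lay far below all MEF values, at a log2 ratio of -3.64 ± 0.287 (SD, n = 3), or 12.4-fold lower, with an adjusted p of 1.60e-05 (limma). A second Cacna1g probe gave -2.80 and was called lower too. The start of the brightest probe, at chr11:94517588-94517647 (mm7), is shown because it reads this ratio.
Cacna1g probe, first 30 bases: catcttcaacggaaagcgagaaccattttg
Cacna1h, another T-type pore, had signals of 392, 398 and 415 in ES cells and 671, 696 and 713 in MEF. Its log2 ratio of -0.79 did not reach 2-fold, and its 2 other tested probes gave 0.11 and -0.08. The third T-type gene, Cacna1i, was too dim to test.

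The auxiliary alpha2delta subunits are extracellular proteins that help to carry the pore to the membrane. All 3 genes were tested and 2 were called lower. Cacna2d1, whose promoter window is printed above, read 985, 1027 and 1007 in ES cells and 5349, 5349 and 5308 in MEF. Its log2 ratio was -2.41 ± 0.031 (SD, n = 3; adjusted p 2.57e-07, limma), and its second probe gave -2.18. Cacna2d3 read 175, 201 and 211 in ES cells and 538, 570 and 562 in MEF, a log2 ratio of -1.51 ± 0.104 (SD, n = 3; adjusted p 1.11e-05, limma). The ES cell and MEF values of both genes were well separated. Cacna2d2 differed from them, with a log2 ratio of 0.21 on its brightest probe and of 1.23 on a second probe that would be called higher.

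The cytoplasmic beta subunits bind the intracellular loop of the alpha1 subunit and raise the number of channels at the surface. All 4 genes were tested and 3 were called lower. Cacnb3 read 2815, 2768 and 2751 in ES cells and 8574, 8379 and 8278 in MEF, with the smallest spread of the called genes, -1.60 ± 0.0086 (SD, n = 3; adjusted p 2.71e-07, limma). Cacnb4 read 162, 179 and 163 in ES cells and 636, 666 and 629 in MEF. It had a log2 ratio of -1.94 ± 0.038 (SD, n = 3; adjusted p 4.89e-07, limma), and its other tested probes gave -1.15 and -1.5, both called lower. Cacnb2, the main cardiac beta subunit, was not well above background in ES cells on any array, at 125, 104 and 119, and read 268, 274 and 279 in MEF. The difference was at least 2.23-fold, with a fitted log2 ratio of -1.24 and an adjusted p of 7.09e-05 (limma). Cacnb1, known from skeletal muscle, was the exception at 0.29.

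Together the alpha2delta and beta genes gave 5 lower and 0 higher calls among 7 genes, all tested, with a median log2 ratio of -1.51. The alpha1 pores gave 2 lower calls and 1 higher among 7 tested of 10, with a median of -0.54. Over all genes tested, 22.4% were called lower and 20.4% higher, with a median of -0.05. No test of the difference between the alpha1 group and the alpha2delta and beta group was made. The gamma subunits, which include the skeletal muscle subunit Cacng1 and the AMPA receptor partners Cacng2, Cacng3, Cacng4 and Cacng8, gave no call among 6 tested of 8. Their largest ratio was that of Cacng6, which read 233, 240 and 253 in ES cells and 137, 117 and 140 in MEF, where it was above background on 1 of 3 arrays. The cell types did not overlap, and the log2 ratio of 0.89 ± 0.138 (SD, n = 3; adjusted p 1.79e-04, limma) stayed under 2-fold. The other 5 lay between Cacng7 at -0.21 and Cacng5 at 0.58, and Cacng8 at -0.05 did not pass the test (adjusted p 0.257, limma). The signs of Cacng2, at -0.06, and of Cacng8 turned under median centring.

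**Figure D3:**
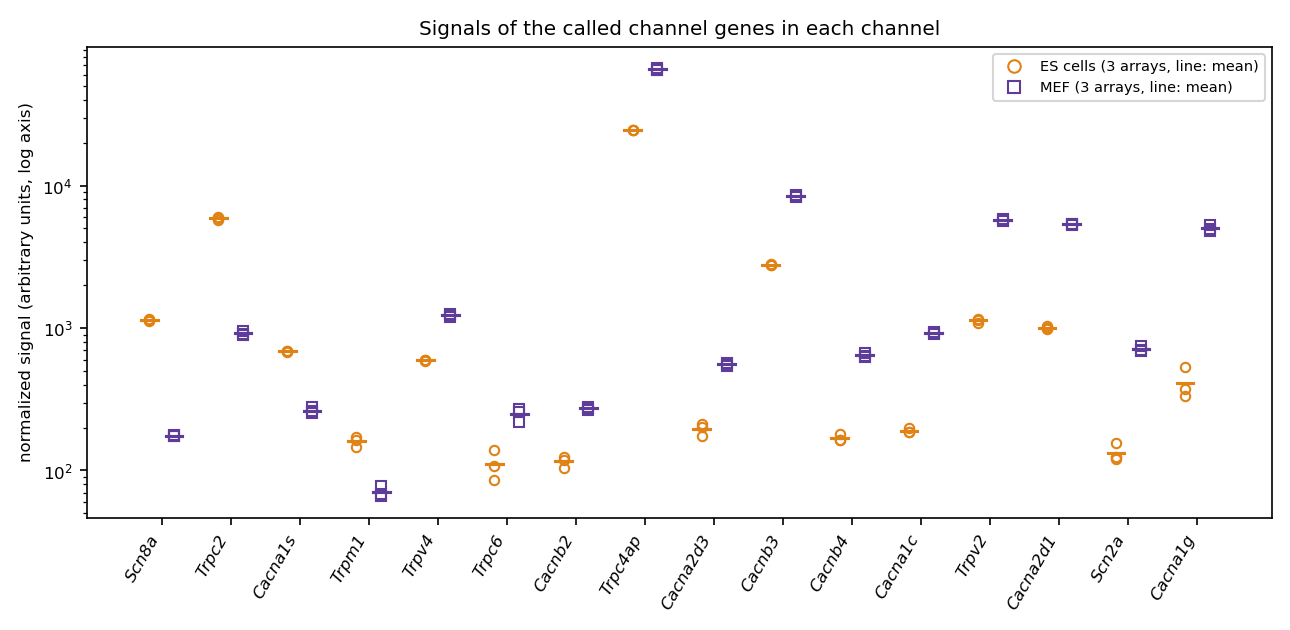
Normalized signal (vertical log axis, arbitrary units) of 16 of the 17 called channel genes in ES cells, left of each pair, and in MEF, right of each pair, with 1 point per array and a line at the mean. Genes run by ratio, with Scn8a at the left end (1158, 1128 and 1139 in ES cells) and Cacna1g at the right end (370, 333 and 530 in ES cells), and only distances within a gene can be compared, since probes differ in brightness.

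TRPC channels are receptor-operated cation channels that open downstream of phospholipase C. Of 7 genes, 4 were tested. Trpc2, a pheromone transduction channel of the rodent vomeronasal organ, read 5970, 5889 and 5768 in ES cells and 948, 911 and 889 in MEF. The cell types did not overlap, and the log2 ratio was 2.68 ± 0.023 (SD, n = 3; adjusted p 1.84e-07, limma), or 6.42-fold higher. Its probes disagreed along the locus. The 3 probes between 6112194 and 6115147 on an unplaced chromosome 7 block (mm7) gave 2.68, 1.19 and 1.33 and were all called higher. The mean over all tested probes was 1.34. Of the 2 probes between 6098535 and 6101423, 1 gave 0.15 and was not called, and the other, the only one assigned to a RefSeq transcript, was too dim to test. RefSeq now lists that transcript under the symbol Xntrpc, so reads of the locus cannot be assigned to the channel alone. The probe starts are shown to mark the 2 ends of this disagreement, at chr7_random:6115088-6115147 and chr7_random:6098535-6098594.
Trpc2 probe with the largest ratio, first 30 bases: aaggtactgagattatgtaagccctttgaa
Trpc2 probe with the smallest ratio, first 30 bases: acagcttgctttgagttctggggtttagaa

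Trpc6, a channel opened by diacylglycerol and known from smooth muscle and podocytes, read 86.3, 108 and 140 in ES cells and 220, 256 and 272 in MEF. The values did not overlap, but the ES cell signal was well above background on 1 of 3 arrays. The log2 ratio was -1.18 ± 0.203 (SD, n = 3; adjusted p 2.44e-04, limma). Trpc1, a widely expressed subunit, fell short of 2-fold at -0.75. Trpc4, Trpc5 and Trpc7 were too dim to test.

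TRPM channels include magnesium and calcium channels joined to enzyme domains. Of 8 genes, 5 were tested and 1 was called. Trpm1, known from melanocytes and retinal bipolar cells, read 146, 162 and 172 in ES cells and 65.9, 68.2 and 77.6 in MEF, where no array was well above background. It was at least 1.91-fold higher in ES cells, with a fitted log2 ratio of 1.18 ± 0.059 (SD, n = 3; adjusted p 4.84e-06, limma), and its second probe was dim in both cell types. The bound lies under the 2-fold minimum, so the call of Trpm1 rests on MEF readings that were not well above background. Trpm7, a channel with a kinase domain that takes up magnesium, read 17703, 17808 and 18052 in ES cells and 11403, 11376 and 11410 in MEF. The cell types did not overlap, but the log2 ratio of 0.65 was below the 2-fold minimum. Trpm4 gave -0.39, Trpm2 gave 0.30, and Trpm3, dim in ES cells, had a bound of at least 1.31-fold lower there.

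TRPV channels respond to heat, swelling or chemical ligands. Both tested genes of 5 were called lower in ES cells. Trpv2, a channel linked to stretch and phagocytosis, read 1091, 1136 and 1166 in ES cells and 5645, 5821 and 5773 in MEF. Its log2 ratio was -2.35 ± 0.033 (SD, n = 3; adjusted p 2.83e-07, limma). Trpv4, an osmotic and mechanical sensor of cartilage and other tissues, read 593, 597 and 588 in ES cells and 1250, 1240 and 1199 in MEF. At -1.05 ± 0.025 (SD, n = 3; adjusted p 1.26e-06, limma) it lay just beyond the 2-fold minimum and was not called under median centring, where it gave -0.85. Trpv3, Trpv5 and Trpv6 were too dim to test.

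Trpc4ap, the gene that shares the TRP symbol without being a channel, was called lower as well. Its signals were 24391, 24489 and 24424 in ES cells and 65117, 65146 and 66406 in MEF, a log2 ratio of -1.42 ± 0.017 (SD, n = 3; adjusted p 4.19e-07, limma). Of its 5 tested probes, 4 gave between -1.48 and -1.17 and were called lower, and the fifth, assigned to a cDNA clone, gave 0.10. The starts of its brightest probe, at chr2:155375169-155375228, and of the clone's probe, at chr2:155385046-155385105 (mm7), are shown as the pair that disagree.
Trpc4ap brightest probe, first 30 bases: agcttacccttggctcctcctgtgttgcca
Trpc4ap clone probe, first 30 bases: ttctgcgtttgcaatctttctctaatggct

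The 19 genes too dim to test were 5 sodium channel alpha subunits (Scn3a, Scn7a, Scn9a, Scn10a and Scn11a), 3 alpha1 subunits, 2 gamma subunits (Cacng1 and Cacng3) and 9 TRP channels. Of these, 15 had no probe well above background on any array in either cell type, and 4 had one on some arrays. Their brightest probes read between 60.1 and 164 in ES cells and between 71.1 and 158 in MEF. At these signals neither a presence nor a difference could be measured, and a dim probe does not show that a gene is silent.

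**Figure D4:**
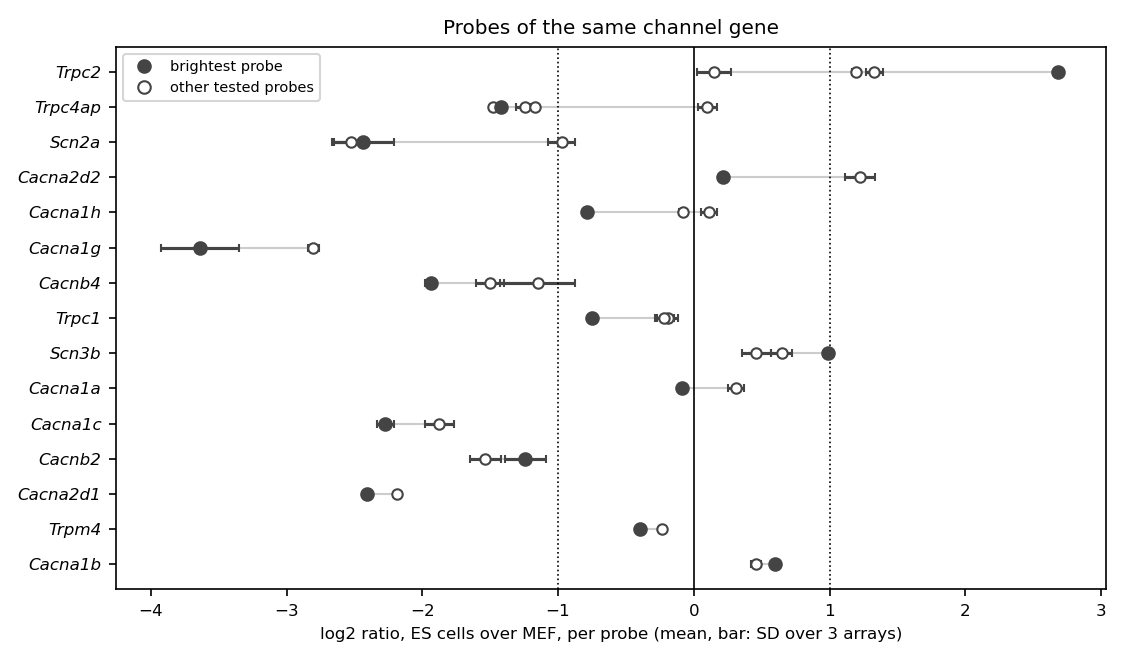
Log2 ratio of ES cells over MEF (horizontal axis) for each tested probe of 15 of the 17 channel genes with more than 1 tested probe, as the mean with its SD over 3 arrays. The brightest probe is filled, and the widest gaps are those of Trpc2, from 0.15 to 2.68, and Trpc4ap, from -1.48 to 0.10.

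Probes of 1 gene gave a partial check that the choice of the brightest did not use, limited to probes bright enough to test. Of 17 channel genes with more than 1 tested probe, 12 had the same outcome on every tested probe and 5 did not, among them Trpc2, Trpc4ap, Scn2a and Cacna2d2. The 12 include genes such as Cacna1h and Cacna1a, for which the shared outcome was no call. The same share over all genes was not computed, so the count sets no channel gene apart. No gene had 1 probe called higher and another called lower. The sign differed between tested probes for Trpc4ap, Cacna1h and Cacna1a. Among the genes called lower, Cacna1g, Cacna1c, Cacna2d1, Cacnb2 and Cacnb4 were called lower by every tested probe, while Cacna2d3, Cacnb3, Trpc6, Trpv2 and Trpv4 have 1 probe each. The tested probes of Cacnb2, and dimmer tested probes of Cacna1c and Cacnb4, passed the filter through MEF alone, which favours a lower call. A further probe of Cacnb2 and of Cacnb4 was too dim to test. Of the genes called higher, Trpc2 alone had a second probe called higher, and the further probes of Scn8a, Cacna1s and Trpm1 were too dim to test.

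Cell type markers were read beside these genes. All 8 ES cell markers were higher in ES cells (median log2 ratio 3.86), and all 10 fibroblast markers were lower (median -4.63), as both labels would have it. Genes listed as markers of some other cells were also lower in ES cells, beside 22.4% of all genes tested. This held for 7 of 7 smooth muscle genes, with summed signals of 41222 to 42704 in ES cells and 554409 to 560216 in MEF. It also held for 8 of 9 macrophage genes (13881 to 14261 in ES cells, 436784 to 464832 in MEF). Whether such cells were present in the MEF culture was not tested. Of the 9 glial genes, 7 were tested and 6 were lower in ES cells (3346 to 3430 in ES cells, 14809 to 15461 in MEF), with Gfap and Aqp4 not well above background in ES cells. Cacna1c and Trpc6, known from smooth muscle among other tissues, and Trpv2, known from macrophages, were lower like the smooth muscle and macrophage lists. Cacna1c is also known from heart and brain, and those marker lists were mixed. Cardiac markers gave 3 lower and 4 higher calls, and neuronal markers 1 lower and 5 higher. The part of any of these cells in the lower calls was not tested.

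On the ES cell side, 12 of 14 neuronal markers were tested, and 5 were higher and 1 lower (39223 to 39582 in ES cells, 19862 to 20454 in MEF). The 5 were Nefl at 4.51, Stmn2 at 4.35, Ina at 3.84, Elavl3 at 2.44 and Elavl4 at 2.21, while Syt1 and Dcx were too dim to test. The lower gene was Map2 at -1.71, and the 6 not called lay between Syn1 at -0.40 and Snap25 at 0.84. Scn8a moved in the same direction as the 5 higher genes and Scn2a in that of Map2, and the part of neuronal cells in either was not tested. Skeletal muscle markers were split, with 2 of 8 tested higher and 4 lower (10445 to 10846 in ES cells, 41955 to 43348 in MEF), and Myf5, Myog and Ckm were too dim to test. Most of that MEF sum was Acta1, at 36740, 35541 and 36316. Myh3 at 2.50 and Mylpf at 2.61 were higher in ES cells, as Cacna1s was. Acta1, Tnni2, Tnnt3 and Des were lower, and the part of muscle cells in the Cacna1s result was not tested. Cardiac markers gave 4 higher and 3 lower of 8 (11662 to 12377 in ES cells, 85447 to 89379 in MEF). Nearly all of that MEF sum was Actc1, at 82169, 85422 and 86232, while the median log2 ratio of the list was 0.78. Such sums follow the brightest probes and do not show which culture carries a lineage. Endothelial markers gave 3 higher and 2 lower of 5 tested out of 7 (5488 to 5557 in ES cells, 2701 to 2756 in MEF).

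Genes that bind, modify or anchor these channels were read from a list of 28 partners and regulators. Of 26 tested, 6 were higher and 6 lower in ES cells, with a median log2 ratio of -0.35. Over all genes tested, 20.4% were higher and 22.4% lower, with a median of -0.05. The counts of this list were thus near the background in both directions. The highest were Camk2b at 2.88 ± 0.027 and Rest at 1.81 ± 0.025 (SD, n = 3), a kinase subunit that modifies calcium channels and a repressor of neuronal genes. The lowest were Camk2d at -3.74 ± 0.045 and Rrad at -2.78 ± 0.041, another kinase subunit and a small GTPase that holds down calcium channels through their beta subunits. Gem, a GTPase of the same family, was lower too at -2.45, as were Bin1, Ank2 and Nedd4, while Stac2, Calm3, Cabp1 and Nedd4l were higher. Camk2b and Camk2d, 2 subunits of 1 kinase family, thus lay at opposite ends of the list.

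Store-operated and other cation entry was read from 27 genes, of which 19 were tested. Here 8 were lower and 2 higher in ES cells, with a median of -0.98, beside 22.4% lower and 20.4% higher over all genes tested. The lowest were Mcoln2 at -2.66, a lysosomal cation channel, and Pkd2 at -2.64, a channel of cilia and endoplasmic reticulum. Its partner Pkd1, at -2.32, and Orai2, at -2.28, a store-operated pore, were also lower, as were Tpcn1, Tpcn2, Mcoln3 and Stim1. The higher genes were Catsper2 at 2.25, a sperm channel subunit, and Pkd2l1 at 1.17, which was above background on 1 of 3 MEF arrays.

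Calcium release, pumps and exchangers were read from 26 genes, of which 20 were tested. Of these, 6 were lower and 2 higher in ES cells, with a median of -0.38, beside 22.4% lower and 20.4% higher over all genes tested. Ryr3, a calcium release channel, was the highest at 2.30 ± 0.045 (SD, n = 3), and Atp2c1, a Golgi calcium pump, followed at 1.15. Itpr2, an inositol trisphosphate receptor, was the lowest at -2.52. Slc8a1, the sodium-calcium exchanger of heart, was at -2.28 ± 0.427, and Micu2, Calr and Mcu were lower as well. Mcu, the pore of mitochondrial calcium uptake, was at -1.28.

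**Figure D5:**
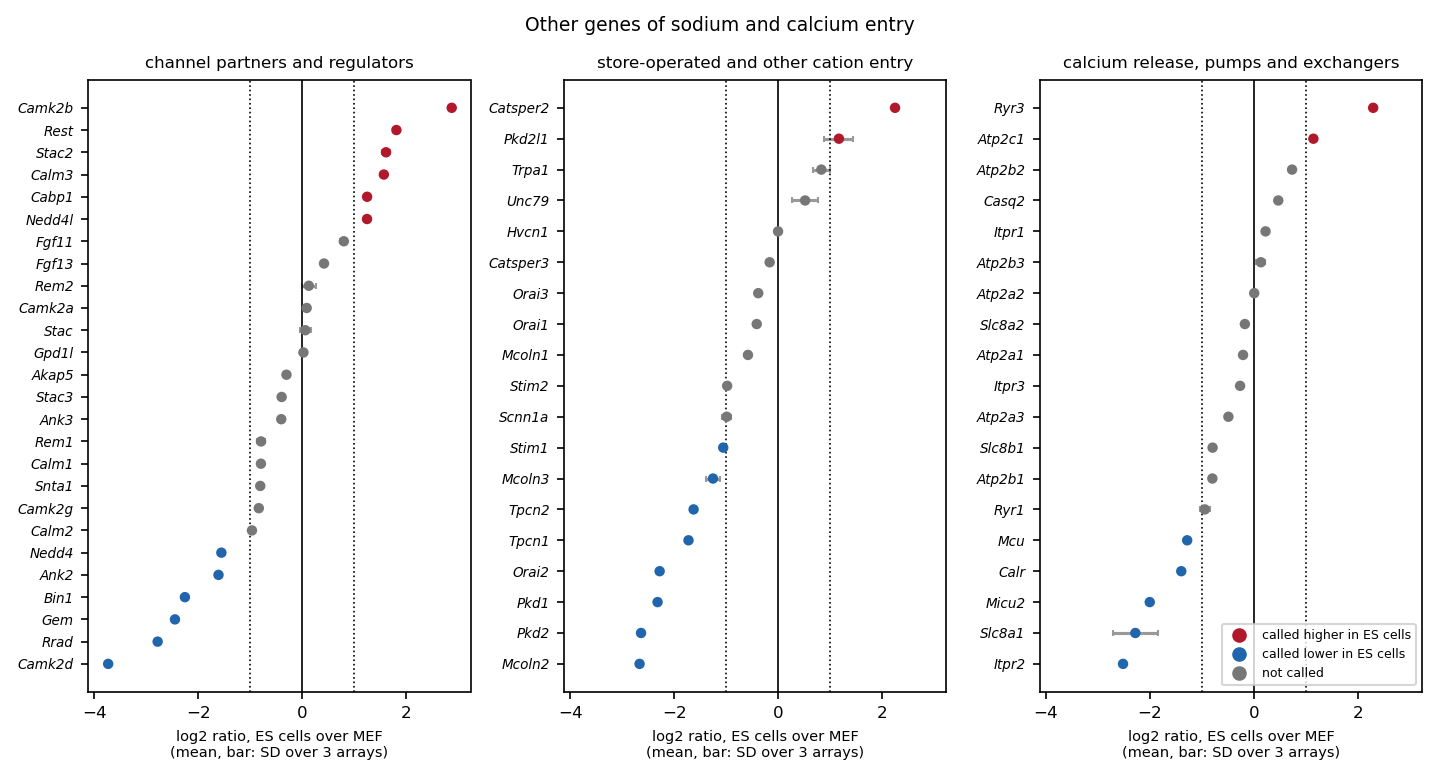
Log2 ratio of ES cells over MEF (horizontal axis, mean with SD over 3 arrays) for tested genes of 3 lists: channel partners and regulators, store-operated and other cation entry, and calcium release, pumps and exchangers. Dotted lines mark the 2-fold minimum, and Camk2b and Camk2d span the first list from 2.88 to -3.74. In the second list, 8 of 19 genes lie on the lower side beyond the line, beside 22.4% of all genes tested called lower.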

How the data were processed

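Scanner files of 3 two-colour arrays gave, per spot, mean and background intensity in both channels, made by the authors with Agilent Feature Extraction 9.5.3.1 per the file headers. The deposited value table, tested as an alternative, matched the scanner files' log10 ratio of red over green once that was turned in sign and converted to log2 (r = 0.998, 1.00 and 0.999), so the deposited table was read as log2 of ES cells over MEF. The values lay within 0.01 of each other for 85.4% to 87.8% of probes, and its column medians were 0.213, 0.0859 and -0.143. Probe coordinates are mm7 per the file headers; aligners do not apply, and the authors' further steps are not given in the sources used here.

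Intensities were background-corrected with normexp (offset 50), and log2 ratios were normalized by loess within each array (limma 3.58.1, R 4.3.3) and turned to ES cells over MEF. These were computed here from the deposited intensities, not taken from log2 values of the authors. Control and outlier spots were left out. Of 41174 gene probes, 29502 were well above background in 1 channel on all 3 arrays. The brightest probe stood for each gene, the mean ratio was tested against 0 (lmFit, eBayes), and p-values were adjusted over 19493 genes. Signals per channel came after Aquantile, include the offset and are arbitrary units. Of the probes, 23082 were named by accession, 9655 by symbol and 8437 kept the file's name. Median signals were 398 to 421 in ES cells and 381 to 391 in MEF.

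Some genes are not reported here by name or in the plots, but counts include them. Values per array were given for every other called channel gene and for the largest ratio of a family with no call, and for listed genes the 2 highest and 2 lowest called; other genes named were chosen after their values were seen. The channel genes, the gene lists and the marker lists were chosen with earlier results of these data known. With 1 slide, 1 scan time and no dye swap, dye bias of single probes stays in every ratio. The fitting code was tested on simulated data. Alternatives varied background correction, normalization, the dim-probe filter, the probe summary, outlier spots, the source of values, the call rule and the arrays used.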

Additional observations from a re-analysis of the deposited data

How the results depend on the processing

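Of the 17 called channel genes, 16 kept their call in every refit that could test them, Trpv4 being the exception under median centring (-0.85). These refits varied the signals, normalization, filter, probe summary or arrays and kept the call rule. A stricter rule, which tests the ratio against the 2-fold minimum itself, was run for total counts only. Calls of single genes under that rule are therefore not part of this tally. Against 4 higher and 13 lower, the scanner software's processed signals and the authors' value table each gave 7 higher (adding Cacng5, Cacng6 and Scn3b), and lower calls then numbered 16 (Cacna1d and Trpm3 among those added). Without a fold minimum there were 14 higher and 24 lower channel genes, and 8952 higher and 9653 lower over all genes against 3972 and 4376. Leaving out each array in turn gave 4 to 5 higher and 13 to 13 lower channel genes, and 3940 to 4004 higher and 4335 to 4394 lower over all genes. Median centring moved the median of all genes from -0.05 to 0.11. Signs turned for Cacna1a under median centring (0.0254) and the mean of its probes (0.11), for Cacng2 under median centring (0.0401), and for Cacng8 under the processed signals (0.0059), the authors' table (0.0059) and median centring (0.0667); the causes were not tested. Requiring both channels above background left 29 channel genes, with 3 higher and 10 lower, and Trpm1, Cacnb2, Scn2a and Trpc6 could not be tested. A slide or scan block was not run, as there is 1 of each. No paired analysis was possible because the 3 samples form 1 group, with no other group to share replicate numbers with, beyond the ratios themselves, which set each ES cell sample against MEF on its own array. Signal over background limits the 19 dim genes.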
